A study of Saccharomyces cerevisiae with 6 samples.

Results

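The genes described here encode 48 assembly factors of the large (60S) ribosomal subunit of budding yeast. They were chosen by name, as known 60S assembly factors, but with earlier results of these data known. Each was read by 1 probe set on the array. All 48 are among the 5449 Saccharomyces cerevisiae genes measured, and none was read by a probe set marked as able to cross-hybridize. Transcripts were measured in strain VTT C-10883, grown in anaerobic chemostats, which are continuous cultures kept without oxygen. The inhibitor group held 3 samples, 1 array each, treated by a step change to a feed containing furfural and hydroxymethylfurfural (HMF). Both are aldehydes that arise from sugars when plant biomass is heated with acid. The group without inhibitors held 3 samples whose treatment is given as none, and both groups shared strain and growth type. No source used here states the inhibitor dose, the sampling time or how fast the chemostats were diluted. The labels name 3 biological replicates per condition but do not say whether replicate numbers pair the cultures. The p-values measure the spread between these samples.

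As background, the large subunit is put together around a long precursor RNA in the nucleolus, and its parts are joined by the 5S RNA, which arrives on its own particle. Assembly factors fold the RNA, hold places for ribosomal proteins, cut out spacer RNA, modify bases and escort the particle through the nuclear pores, and they leave before the ribosome translates. In yeast the genes of these factors are known to be transcribed together, and their transcripts to follow nutrient supply and growth rate.

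Values are log2 signals, on which a difference of 1 is a doubling, and every change is given as inhibitors minus no inhibitors. All 48 genes lay above background, the 95th percentile of fission yeast probe sets, on all 6 arrays, with mean log2 signals of 6.12 to 9.83. This background is a low bar: it was 2.215 to 2.216, beside a lowest value of 2.214, and 5346 of all 5449 genes passed it on 6 arrays. Over all genes, 2 arrays of the same group had r = 0.998 to 0.999, and 2 of different groups 0.989 to 0.994. A gene was called when limma's moderated test gave an adjusted p under 0.05, with Benjamini-Hochberg adjustment over all 5449 genes. The small number of arrays limits the precision. RNA came from whole cultures, so fewer cells with a transcript and less of it per cell cannot be told apart.

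Assembly factor transcripts were mostly slightly higher with inhibitors. Of the 48 genes, 19 rose (39.6%), 2 fell (4.17%) and 27 were not called. Over all genes 19.9% rose and 22.3% fell. The median log2 fold change was 0.12 for the factors and -0.01 for all genes, and 35 of 48 factors (72.9%) had a positive value against 46.5% of all genes. The middle part of the factors, between the 25th and 75th percentiles, spanned -0.01 to 0.22, where all genes spanned -0.13 to 0.11. Changes were small: 0 factors moved by over 1.5-fold, and the 5 largest rises were those of LOC1, NOP15, NSA1, RPF1 and NOP16. The inhibitor and no-inhibitor values did not overlap for 23 factors that were higher and 5 that were lower, against 26.1% and 29.3% of all genes. Leaving out 1 array at a time gave 15 to 20 rises among the factors, and 1 or 2 falls.

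**Figure D1:**
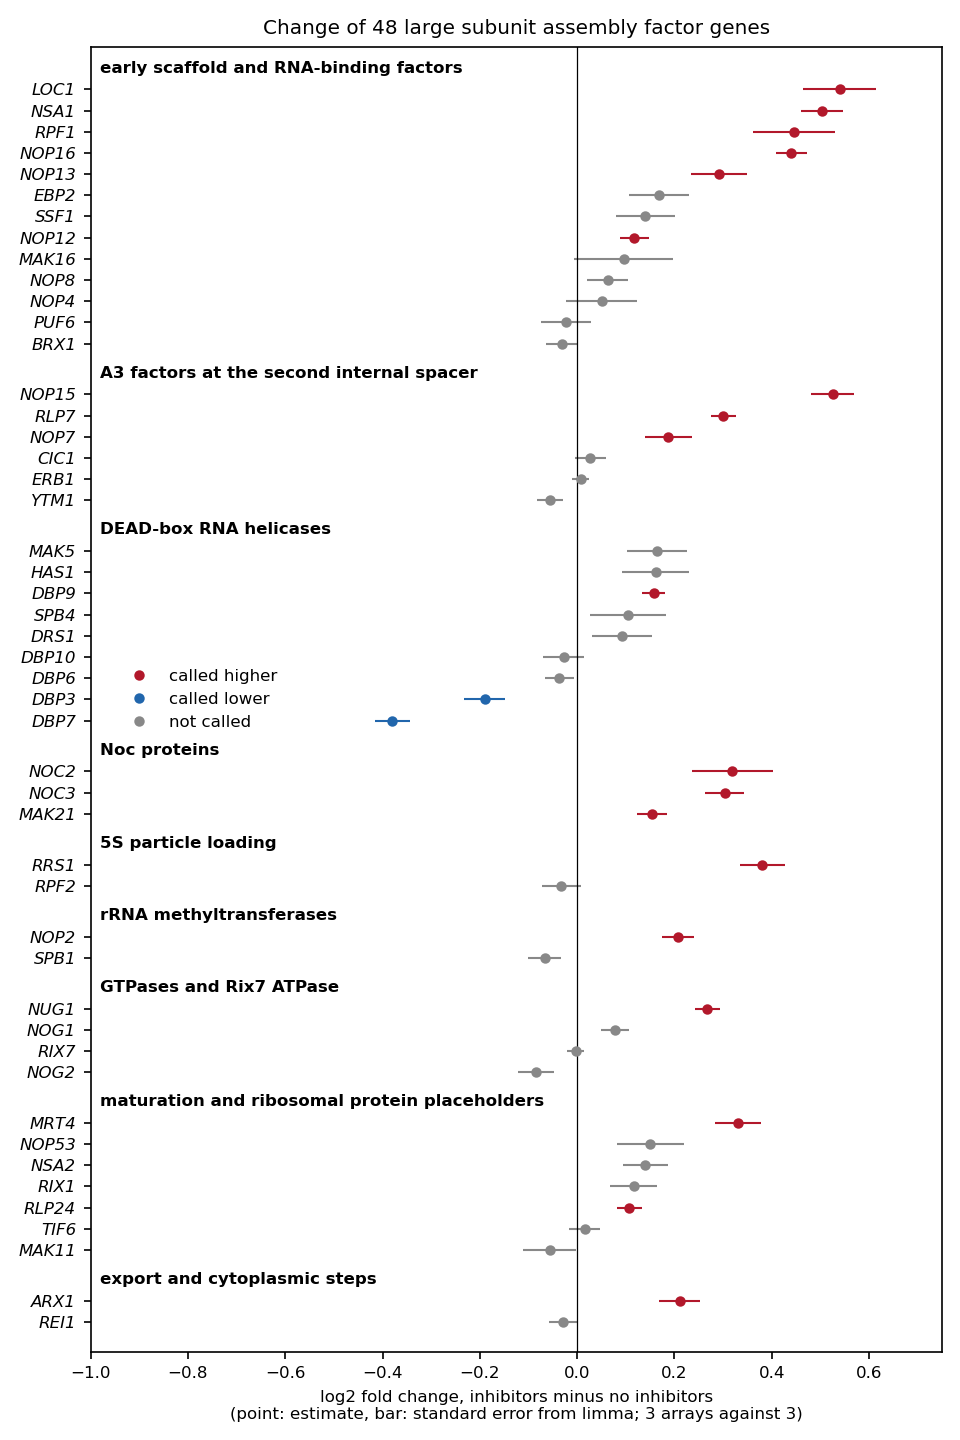
Log2 fold change (inhibitors minus no inhibitors, x axis) of each of the 48 assembly factor genes, grouped by role, with the standard error from limma as a bar. Called rises reach 0.54 for LOC1 in the top group, and both called falls, DBP7 and DBP3, lie among the helicases.

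Early scaffold and RNA-binding factors join the precursor in the nucleolus. Of the 13, 6 rose (46.2%, against 19.9% of all genes), 0 fell (against 22.3%) and 7 were not called. LOC1, whose protein binds RNA and is also known for localizing ASH1 mRNA, had log2 signals of 7.53, 7.59 and 7.69 in inhibitor samples and 7.19, 7.07 and 6.94 in samples without inhibitors. Every inhibitor value exceeded every other value, and the rise was 0.54 (SE 0.08, 1.45-fold, adjusted p = 0.00432 in limma). NSA1, which encodes a nucleolar pre-60S protein, had 7.78, 7.89 and 7.86 with inhibitors and 7.40, 7.31 and 7.31 without. Its groups were also apart, by 0.50 (SE 0.04, adjusted p = 0.00107 in limma).

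RPF1, which encodes an RNA-binding protein of the same nucleolar module as Nsa1, had log2 signals of 8.03, 8.23 and 8.33 in inhibitor samples and 7.75, 7.83 and 7.68 in those without. The spread with inhibitors was wider (SD 0.15, against 0.07 without), and the log2 fold change was 0.45 (SE 0.08, adjusted p = 0.011 in limma). NOP16, another early pre-60S factor gene, gave 8.04, 8.04 and 8.10 with inhibitors and 7.60, 7.59 and 7.67 without, a tight separation with the lowest adjusted p of the 48 genes in limma (0.000736, log2 fold change 0.44, SE 0.03). NOP13, whose protein carries RNA recognition motifs, gave 7.79, 7.999 and 7.94 with inhibitors and 7.62, 7.59 and 7.64 without (log2 fold change 0.29, SE 0.06, adjusted p = 0.0125 in limma). NOP12, which encodes another nucleolar RNA-binding protein, rose least of these 6, by 0.12 (adjusted p = 0.0282 in limma). That last call was lost without inhibitor replicate 1 or 2 or no-inhibitor replicate 2 or 3 (adjusted p = 0.0667, 0.0821, 0.0849 and 0.082).

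Of the 7 early factors not called, EBP2 and SSF1 had log2 fold changes of 0.17 and 0.14, MAK16 of 0.10, NOP8 of 0.06 and NOP4 of 0.05. PUF6 and BRX1 had -0.02 and -0.03. The EBP2 values of the groups touched without overlapping, at 8.37, 8.52 and 8.58 with inhibitors and 8.33, 8.37 and 8.27 without (adjusted p = 0.0822 in limma). EBP2 was called higher without inhibitor replicate 1 (adjusted p = 0.0147), and SSF1 without no-inhibitor replicate 1 (adjusted p = 0.0401).

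**Figure D2:**
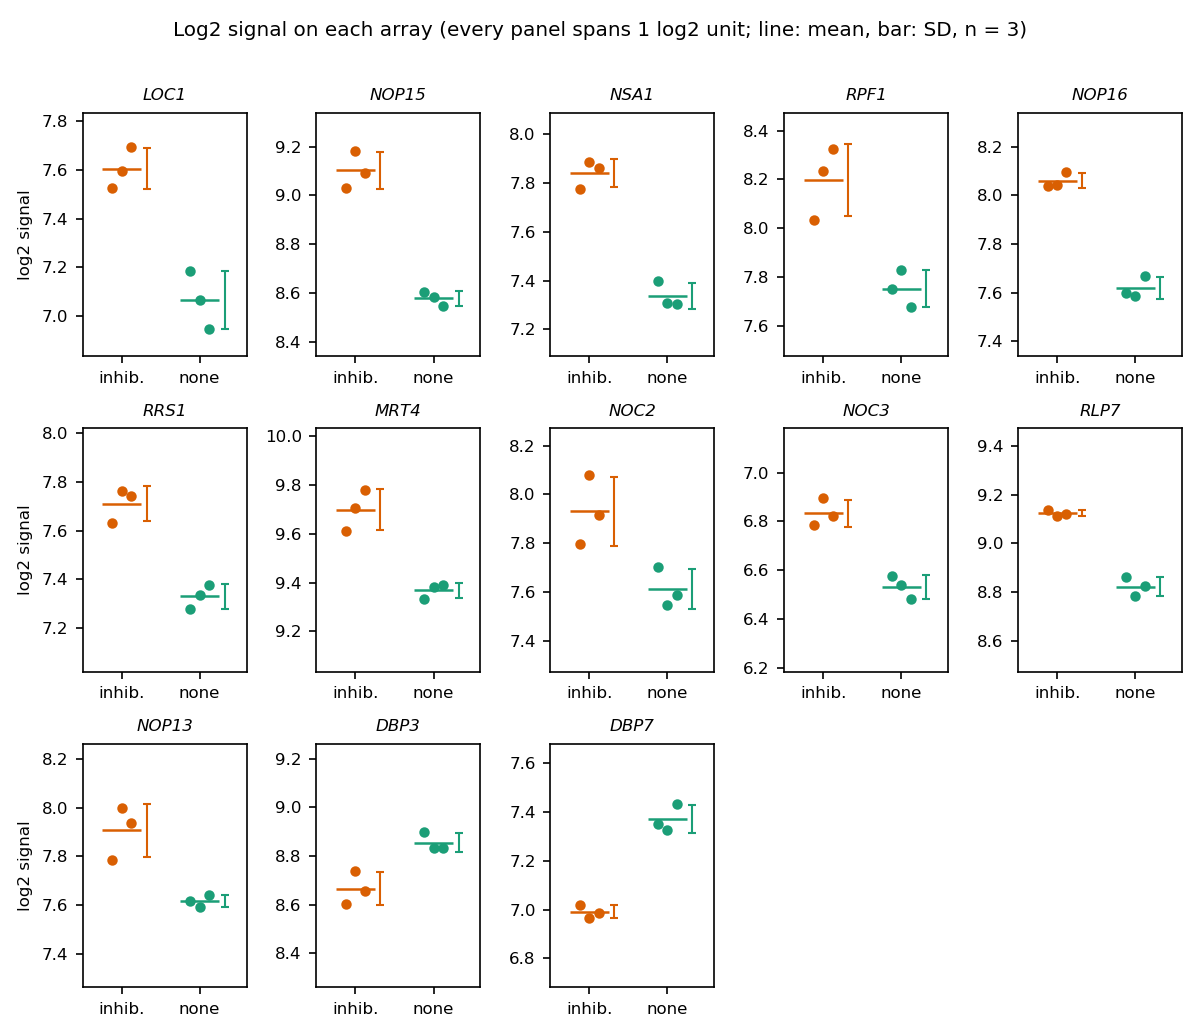
Log2 signal on each of the 3 inhibitor arrays (left in each panel) and the 3 arrays without inhibitors (right) for the 12 called factors with the largest change and for DBP3. Points are arrays, lines means and bars SDs, and each panel spans 1 log2 unit. In all 13 panels the groups do not overlap, which the choice of called genes favours.

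A3 factors gather where the second internal spacer is removed from the precursor. Of the 6, 3 rose (50%, against 19.9% of all genes) and 0 fell (against 22.3%). NOP15, which encodes an RNA-binding protein at this spacer, had log2 signals of 9.03, 9.18 and 9.09 in inhibitor samples and 8.60, 8.58 and 8.54 in those without. The groups lay far apart for their spread, with a rise of 0.53 (SE 0.04, 1.44-fold, adjusted p = 0.00104 in limma). RLP7 encodes a relative of ribosomal protein L7 that sits in the assembling particle. Its signals were 9.14, 9.11 and 9.12 with inhibitors and 8.86, 8.78 and 8.82 without, a rise of 0.30 (SE 0.03, adjusted p = 0.00111 in limma).

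NOP7, ERB1 and YTM1 encode the 3 subunits of a single complex that is needed for spacer processing. NOP7 gave 7.72, 7.86 and 7.83 with inhibitors and 7.60, 7.57 and 7.67 without, and rose by 0.19 (SE 0.05, adjusted p = 0.0284 in limma). This call was lost without inhibitor replicate 2 or 3 or no-inhibitor replicate 1 or 2 (adjusted p = 0.0776, 0.0845, 0.0825 and 0.085). ERB1 had a log2 fold change of 0.01 (SE 0.02), with all 6 values between 8.11 and 8.13. YTM1 had -0.06 (SE 0.03, adjusted p = 0.146), and CIC1, whose protein lies beside Nop15 on the spacer, had 0.03 (SE 0.03).

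DEAD-box RNA helicases use ATP to unwind or clamp RNA during assembly, and theirs was the role group that held both falls. Of the 9, 1 rose (11.1%, against 19.9% of all genes), 2 fell (22.2%, against 22.3%) and 6 were not called. DBP7, which encodes a helicase of early pre-60S particles, had log2 signals of 7.02, 6.97 and 6.99 with inhibitors and 7.35, 7.32 and 7.44 without. Every inhibitor value lay below the lowest value without inhibitors, and the log2 fold change was -0.38 (SE 0.04, 0.77-fold, adjusted p = 0.0014 in limma). DBP3, the gene of a helicase that aids cutting at the A3 site, had 8.60, 8.74 and 8.66 with inhibitors and 8.90, 8.83 and 8.83 without. It fell by 0.19 (SE 0.04, adjusted p = 0.0181 in limma), a call lost without inhibitor replicate 3 (adjusted p = 0.0572) or no-inhibitor replicate 1 (adjusted p = 0.0574), so that DBP7 alone of the 48 then fell.

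DBP9 gave 7.87, 7.86 and 7.83 with inhibitors and 7.71, 7.71 and 7.67 without, narrow groups that stood apart at 0.16 (SE 0.02, adjusted p = 0.00526 in limma). MAK5 and HAS1 had the same log2 fold change of 0.16 but wider spread (SE 0.06 and 0.07, adjusted p = 0.0855 and 0.118 in limma), and MAK5 was called higher without no-inhibitor replicate 1 (adjusted p = 0.0195). SPB4 had 0.10, DRS1 0.09, DBP10 -0.03 and DBP6 -0.04.

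All 3 Noc protein genes rose, against 19.9% of all genes. These proteins form pairs that accompany the particle out of the nucleolus, with Mak21 (also called Noc1) and Noc2 acting early, then Noc2 with Noc3. NOC2 had log2 signals of 7.80, 8.08 and 7.92 in inhibitor samples and 7.70, 7.55 and 7.59 in those without, with a rise of 0.32 (SE 0.08, adjusted p = 0.0292 in limma). Its groups were separate but wide, and the call was lost without inhibitor replicate 2 or 3 or no-inhibitor replicate 2 or 3 (adjusted p = 0.0512, 0.0734, 0.0884 and 0.0846). NOC3 gave 6.79, 6.89 and 6.82 with inhibitors and 6.58, 6.54 and 6.48 without, a rise of 0.30 (SE 0.04, adjusted p = 0.00375 in limma). MAK21 rose by 0.15 (SE 0.03, adjusted p = 0.0118 in limma).

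The 5S particle is loaded by a pair of proteins, Rpf2 and Rrs1, and the gene of 1 of them was called. RRS1 had log2 signals of 7.63, 7.76 and 7.74 with inhibitors and 7.28, 7.34 and 7.38 without, and rose by 0.38 (SE 0.05, 1.30-fold, adjusted p = 0.00288 in limma). RPF2 gave 8.50, 8.56 and 8.64 with inhibitors and 8.58, 8.61 and 8.60 without, overlapping groups with a log2 fold change of -0.03 (SE 0.04). Of the 2 rRNA methyltransferase genes, NOP2, whose enzyme methylates a cytosine, rose by 0.21 (SE 0.03, adjusted p = 0.00597 in limma). SPB1, whose enzyme methylates a ribose, had -0.07 (SE 0.03, adjusted p = 0.17).

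Genes of energy-using release and checkpoint factors gave 1 rise among 4 (25%, against 19.9% of all genes) and 0 falls (against 22.3%). NUG1, which encodes a GTPase of nuclear pre-60S particles, had log2 signals of 8.34, 8.34 and 8.33 with inhibitors and 8.12, 8.05 and 8.05 without, and rose by 0.27 (SE 0.03, adjusted p = 0.0015 in limma). The other GTPase genes, NOG1 and NOG2, had 0.08 and -0.08 (adjusted p = 0.0853 and 0.12). RIX7, the gene of an ATPase that strips Nsa1 from the particle, had values of 7.48 to 7.49 with inhibitors and 7.48 to 7.50 without.

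Among 7 genes of later maturation factors 2 rose (28.6%, against 19.9% of all genes) and 0 fell (against 22.3%). MRT4, which encodes a placeholder for ribosomal stalk protein P0, had log2 signals of 9.61, 9.71 and 9.78 with inhibitors and 9.33, 9.38 and 9.39 without, a rise of 0.33 (SE 0.05, 1.26-fold, adjusted p = 0.00479 in limma). RLP24, the gene of a placeholder for ribosomal protein L24, rose by 0.11 (SE 0.03, adjusted p = 0.0237 in limma), a call lost without inhibitor replicate 1, 2 or 3 (adjusted p = 0.0523, 0.074 and 0.0627). NOP53, NSA2 and RIX1 had 0.15, 0.14 and 0.12, TIF6, whose protein keeps the subunits from joining early, had 0.02, and MAK11 had -0.06. NSA2 came closest to the threshold (adjusted p = 0.0598 in limma), and it and NOP53 were called higher without inhibitor replicate 1 (adjusted p = 0.0282 and 0.0343). Of the 2 genes for export and cytoplasmic steps, ARX1, whose protein rides with the particle through the pore, rose by 0.21 (SE 0.04, adjusted p = 0.0121 in limma). REI1, whose protein helps to release Arx1 in the cytoplasm, had -0.03 (SE 0.03).

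Replicate 1 of both groups lay nearest to the other group. Averaged over the 48 factors, the deviation from each gene's mean was 0.02, 0.09 and 0.09 on the log2 scale in inhibitor replicates 1, 2 and 3, and -0.03, -0.09 and -0.08 in the replicates without inhibitors. The medians of all genes deviated by no more than 0.02 on any array. Of the 19 genes that rose, 15 had their lowest inhibitor value in replicate 1 and 11 their highest no-inhibitor value in replicate 1. The median log2 fold change of the factors was 0.14 without inhibitor replicate 1 and 0.15 without no-inhibitor replicate 1, against 0.12 with all arrays.

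Genes whose products work side by side were compared with each other. The 16 pairs of partners or paralogues were named after the values were seen, so their p-values only describe these data. For each pair, the difference between the log2 signals of both genes was formed on each array and compared between the groups. This gives the difference between their log2 fold changes. LOC1 exceeded PUF6, whose protein binds Loc1, by 0.56 (SE 0.03), NOP15 exceeded CIC1 by 0.50 (SE 0.05), and RRS1 exceeded RPF2 by 0.41 (SE 0.04). NSA1 and RPF1 exceeded MAK16, a gene of the same module, by 0.41 (SE 0.08) and 0.35 (SE 0.09). NOP7 exceeded YTM1 by 0.24 (SE 0.03) and ERB1 by 0.18 (SE 0.05), EBP2 exceeded its partner BRX1 by 0.20 (SE 0.05), and NOC2 exceeded MAK21 by 0.17 (SE 0.08). NOC3 and NOC2 differed by -0.02 (SE 0.06). In 11 of the 16 pairs the arrays of the groups did not overlap, which gave a two-sided exact permutation p of 0.1, the smallest that 3 arrays against 3 allow (0.145 adjusted over the 16 pairs). Taken singly, 26.1% of all genes were higher without overlap and 29.3% were lower without overlap. No such share is given here for other pairs of genes.

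Factors that resemble a ribosomal protein were compared with it in the same way. RLP7 exceeded RPL7A by 0.32 (SE 0.02) and MRT4 exceeded RPP0 by 0.35 (SE 0.06). RPL7A and RPP0 themselves had log2 fold changes of -0.02 and -0.02, RPL24A and RPL24B of 0.04 and 0.05, and none of these 4 was called. RLP24 exceeded RPL24A by 0.06 (SE 0.03) and RPL24B by 0.05 (SE 0.03), with overlapping groups (exact permutation p = 0.2 for both, 0.246 adjusted). The RPL7A probe set is marked as able to bind more than 1 transcript. SSF1 and its near-identical duplicate SSF2 had 0.14 and 0.14, and SSF2 was called (adjusted p = 0.0218 in limma), a call lost without replicate 1 or 2 of the inhibitor group or of the group without inhibitors (adjusted p up to 0.0702). Their probe sets may read both genes. REI1 and its paralogue REH1 had -0.03 and -0.01.

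**Figure D3:**
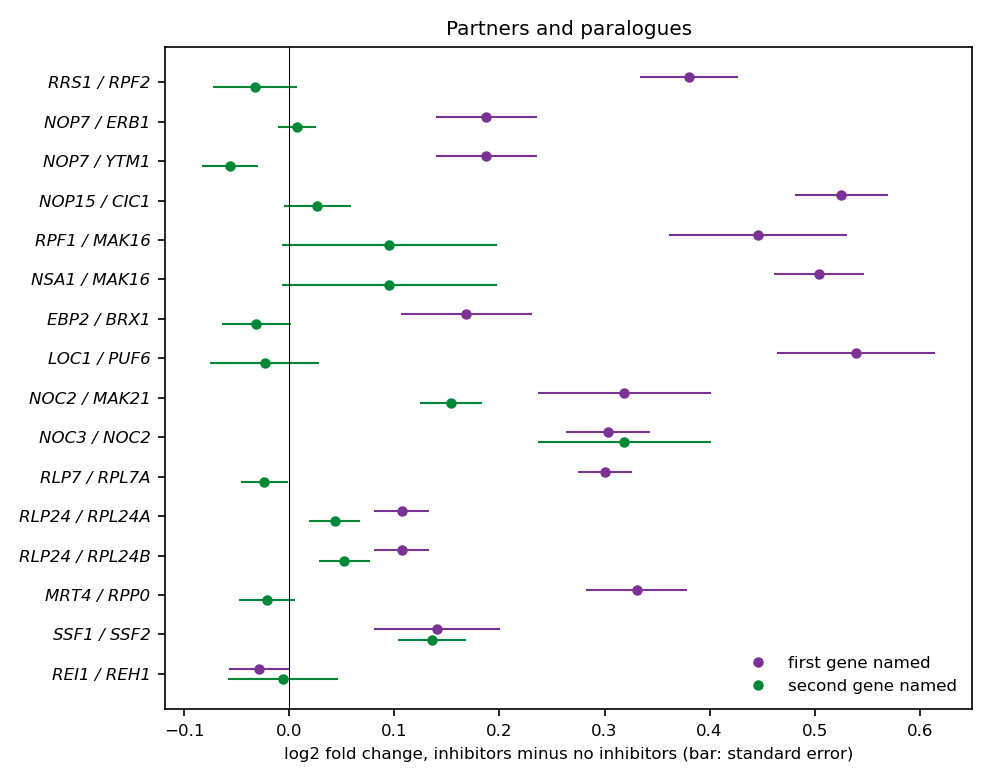
Log2 fold change (inhibitors minus no inhibitors, x axis) of both genes of 16 pairs of partners or paralogues, with standard errors from limma as bars. The gene named first in each label lies right of the second by 0.56 for LOC1 and PUF6 and by 0.41 for RRS1 and RPF2, while SSF1 and SSF2 lie together.

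Shorter factor genes tended to have the larger rises. Of the 7 factor genes up to 750 bp long, 6 rose, with a median log2 fold change of 0.38. They were RRS1 (612 bp), LOC1 (615 bp), NOP15 (663 bp), NOP16 (696 bp), MRT4 (711 bp) and RLP24 (600 bp), and TIF6 (738 bp) was not called. Of the 11 factor genes over 2000 bp, 2 rose and 1 fell, with a median of 0.05. Across the 48 genes Spearman's rho between gene length and log2 fold change was -0.37 and Pearson's r on log2 length -0.45, a description over genes that share 6 arrays and are not independent. Length bounds were chosen after the values were seen, and lengths are gene spans in RefSeq assembly R64, introns included.

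A weaker relation of the same sign held over all genes, with a rho of -0.15. Over 4826 genes with a mean log2 signal over 5 the median was 0.03 up to 750 bp, where 347 of 1103 genes rose and 217 fell, and -0.04 over 2000 bp, where 131 of 1160 rose and 277 fell. The rho was -0.26 over 49 other 60S factors and -0.45 over 58 small subunit factors. With the length trend of all genes removed from each array, an alternative added after the data were seen, 24 factors rose and 2 fell. Rises became more frequent over all genes too: 1322 rose and 1157 fell, against 1086 and 1214 with the trend left in. The RLP24 call was lost with the trend removed (log2 fold change 0.07, adjusted p = 0.147 in limma). Mean signal was nearly unrelated to the change among the 48 factors (rho 0.06). The cause of the relation to length was not tested.

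**Figure D4:**
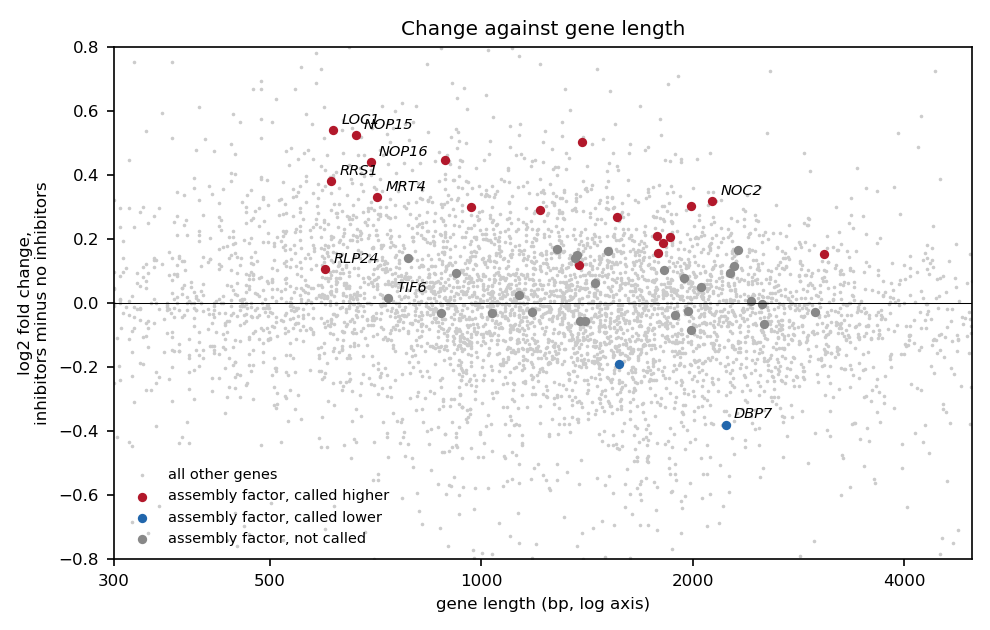
Log2 fold change (inhibitors minus no inhibitors, y axis) against gene length in bp (log axis) for the 48 assembly factors, coloured by call, and for 5001 other genes in grey, with 400 others outside the plotted range. LOC1, NOP15, NOP16, RRS1 and MRT4, all up to 750 bp, lie at 0.33 to 0.54, and RLP24 and TIF6, also up to 750 bp, at 0.11 and 0.02. The longer genes NSA1 (1392 bp) and RPF1 (888 bp) lie at 0.50 and 0.45.

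Related gene lists, also drawn up by name with earlier results of these data known, gave smaller medians. Of 49 other 60S assembly genes 16 rose (32.7%) and 3 fell (6.12%), against 19.9% and 22.3% of all genes, with a median log2 fold change of 0.09. BMT5, which encodes an rRNA methyltransferase, rose by 0.45, FPR4, the gene of a nucleolar proline isomerase, by 0.43, and RRB1, the gene of a chaperone of ribosomal protein L3, by 0.33 (adjusted p = 0.00112, 0.00291 and 0.00402 in limma). The 3 falls, named after their values were seen, were RRP5 (-0.21), the ATPase gene AFG2 (-0.19) and REA1 (-0.15), which encodes a very large ATPase. The count of rises was 9 without inhibitor replicate 2. Of 58 small subunit assembly genes 13 rose (22.4%, near the share of all genes) and 5 fell (8.62%), with a median of 0.03. CMS1 rose by 0.80, KRR1, the gene of an early 40S factor, by 0.50, and UTP20 fell by 0.30. The other 4 falls, also named after their values were seen, were those of NOC4, UTP21, FAL1 and RRP3, at -0.27, -0.23, -0.14 and -0.09. That count was 3 without no-inhibitor replicate 1 or any 1 inhibitor replicate.

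Of 75 large subunit ribosomal protein genes 10 rose (13.3%) and 1 fell (1.33%), against 19.9% and 22.3% of all genes, with a median of 0.01. RPL13B, RPL22B and RPL26A rose by 0.21, 0.20 and 0.20. The fall was that of RPL2B (-0.08), named after its value was seen, and the call was lost whichever of the 6 arrays was left out. The count of rises was 5 without no-inhibitor replicate 2 and 6 without inhibitor replicate 2.

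**Figure D5:**
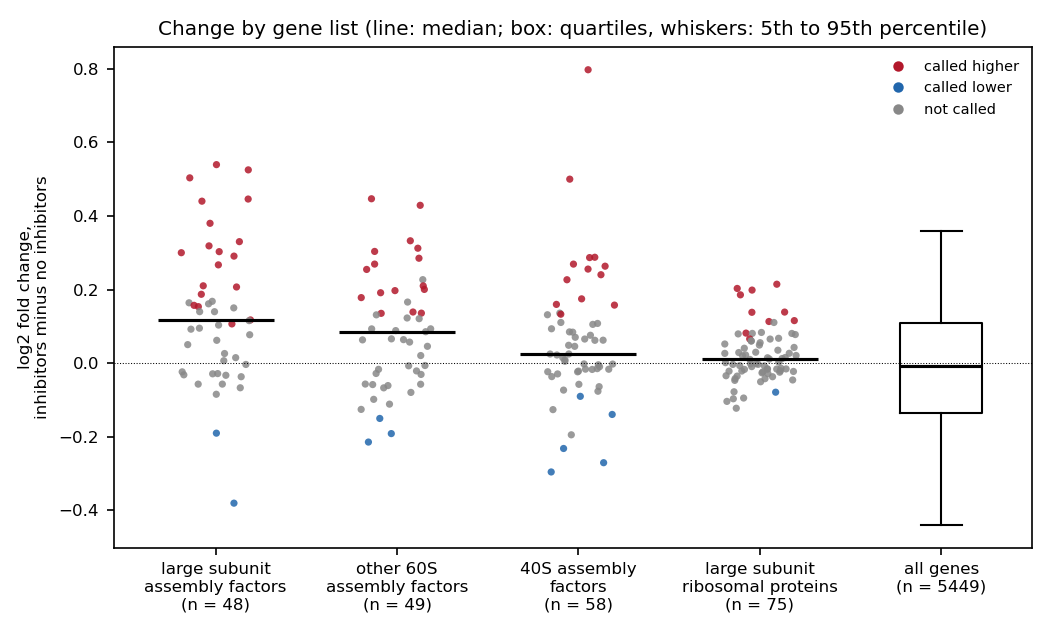
Log2 fold change (inhibitors minus no inhibitors, y axis) of each gene in 4 lists, coloured by call, with the median as a line and a box for all 5449 genes. Medians are 0.12 for the 48 assembly factors, 0.09 for other 60S factors, 0.03 for 40S factors, 0.01 for large subunit ribosomal proteins and -0.01 for all genes.

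Regulators known to act on ribosome genes gave 1 rise (7.14%) and 3 falls (21.4%) among 14, against 19.9% and 22.3% of all genes. SCH9, the gene of a growth-promoting kinase, had log2 signals of 8.77, 8.62 and 8.51 with inhibitors and 8.84, 8.91 and 8.88 without, and fell by 0.25 (adjusted p = 0.0348 in limma). TOR1, the gene of a nutrient-sensing kinase, fell by 0.19, and DOT6, which encodes a repressor of ribosome assembly genes, fell by 0.18 (adjusted p = 0.0238 and 0.0253 in limma). HMO1, whose protein binds ribosomal RNA and protein genes, rose by 0.18 (adjusted p = 0.0285 in limma). Each of these 4 calls was lost in most fits that left out 1 array. That of SCH9 was kept without inhibitor replicate 1 but lost without any other array (adjusted p up to 0.0998). That of TOR1 was lost without any 1 inhibitor replicate or no-inhibitor replicate 3 (up to 0.0705), that of DOT6 without any 1 inhibitor replicate or no-inhibitor replicate 1 (up to 0.074), and that of HMO1 without replicate 2 or 3 of either group (up to 0.0852). Not called were STB3 (0.15), ABF1 (0.10), TOD6 (0.09), REB1 (0.08), FHL1 (0.04), RAP1 (-0.03), IFH1 (-0.04), TOR2 (-0.04), SFP1 (-0.09) and CRF1 (-0.09). STB3 was called higher without no-inhibitor replicate 2 (log2 fold change 0.09, adjusted p = 0.0354 in limma), and also after quantile normalization (0.16, adjusted p = 0.0369), with genes of a mean under 5 left out (0.15, adjusted p = 0.0485) and with the length trend removed (0.19, adjusted p = 0.0186). Without no-inhibitor replicate 1, REB1 was called higher (0.15, adjusted p = 0.0285 in limma) and CRF1 lower (-0.13, adjusted p = 0.0218). CRF1 lay little above background on all arrays, with log2 signals of 2.58, 2.57 and 2.58 with inhibitors and 2.58, 2.72 and 2.69 without. Both of its changes given here therefore rest on very weak signals. With the length trend removed, ABF1 (0.16, adjusted p = 0.0193) and TOD6 (0.14, adjusted p = 0.0498) were called higher too.

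Of 89 measured genes next to a factor, 15 rose and 18 fell, against 19.9% and 22.3% of all genes. In the gene order of R64, 24 of the 48 factors had a neighbour that starts away from them and so shares their upstream region. Of these 24 neighbours 3 rose, namely TDA1 beside HAS1, FSF1 beside YTM1 and SEC62 beside NOG1, and 2 fell, namely RSM19 beside DBP6 and RRP3 beside SSF1. For the 9 of the 19 rising factors with such a neighbour, 0 of the neighbours were called in limma, and 1 had an unadjusted p under 0.05. That was DOM34 beside RLP7, with a log2 fold change of 0.24 (adjusted p = 0.0504). Of the 28 measured neighbours of rising factors that do not start away from them, 9 rose and 5 fell, among them CYB5 beside NOP15 (0.52) and MDG1 beside NOP13 (0.49). These neighbours were named after their values were seen. NOC3 lies next to CMS1, the small subunit factor with the rise of 0.80.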

How the data were processed

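Total RNA from 6 samples was biotin-labelled with an Affymetrix 3' expression kit and hybridized to 1 array each, per the labels' protocols. The authors deposited 1 log2 signal per probe set and array. GCRMA and limma were used, per the submitters' processing notes, and neither versions nor a genome build are stated in those notes. The method GCRMA normalizes between arrays and leaves a floor (lowest value 2.21). The table held 10762 probe sets, of which 5498 had 1 S. cerevisiae gene in the platform annotation. Per gene, the set with the highest mean was used. Names and lengths came from RefSeq R64.

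Groups were compared in limma 3.58.1 (R 4.3.3), two-sided, with group as the single factor, no low-signal filter, and Benjamini-Hochberg adjustment over 5449 genes. The fit was tested on simulated data. Changes of pairs were compared by exact permutation tests. Members and lists were chosen with earlier results of these data known. The text gives every member's change, values on each array for the 12 called members with the largest change, for called falls and for some others, and the 3 largest called changes of each list, with all regulators and paralogues. Neighbours, pairs, lengths and further falls were named after values were seen. Promoter and protein sequences planned for description were not used here. Figures were drawn with matplotlib 3.10.9.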

Additional observations from a re-analysis of the deposited data

How the results depend on the processing

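The alternatives covered quantile normalization, median centring, a filter on means under 5, trended and robust moderation, weighting of arrays, a replicate block, the choice of probe sets, a stricter threshold, leaving out each array, and the removal of the length trend, which was added after the data were seen. None of the 21 called factors changed sign under the 16 alternatives, and 12 kept their call under all of them. At an adjusted p under 0.01, 11 factors rose and 1 fell, and over all genes 608 rose and 582 fell. Same-numbered samples deviated from their group means in opposite directions (r = -0.21, -0.27 and -0.19 over 4826 genes). Differently numbered samples had r of 0.07 to 0.19. Deviations within a group sum to 0, so these values cannot decide whether the numbers pair the samples. With the replicate block 13 factors rose and 1 fell, DBP7, and over all genes 774 rose and 810 fell. Without 1 array, 15 to 20 factors rose, 1 to 2 fell, and their median log2 fold change was 0.10 to 0.15. Over all genes 855 to 1023 then rose and 868 to 1117 fell. The other alternatives gave 19 to 24 rises and 2 falls among the factors. Over all genes more fell than rose (1086 higher, 1214 lower), and 4 alternatives turned this balance: the threshold of 0.01 (above), quantile normalization (1252 higher, 1125 lower), removal of the length trend (1322 and 1157) and leaving out no-inhibitor replicate 1 (937 and 868). Of the 27 factors not called, 8 were called higher under at least 1 alternative, and 10 lay on both sides of 0: BRX1, DBP6, DBP10, ERB1, MAK11, NOP4, PUF6, RIX7, RPF2 and TIF6. The cause of these moves was not tested.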
